A study of Homo sapiens with 4 samples.

Results

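The genes described here are 10 classic targets activated by EWS-FLI1 in Ewing sarcoma, of 20098 protein-coding genes in the annotation: NR0B1, STEAP1, STEAP2, CAV1, FCGRT, PRKCB, VRK1, PPP1R1A, LIPI and CALCB. They were given by name, as genes described as driven from runs of the motif GGAA, and all 10 were found in the annotation. For each, every peak over the gene or within 200 kb of it was examined, together with the runs of GGAA that the reference genome holds there. STEAP1 and STEAP2 lie side by side and share most of their windows, so the 10 genes make up 9 loci.

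The cells were SK-N-MC, a long-used human line of Ewing sarcoma, grown with no treatment named in the labels. Chromatin was digested with micrococcal nuclease and sonicated, then precipitated with an antibody to FLI1, to SSRP1 or to histone H3 acetylated at lysine 27 (H3K27ac). Each target had 1 library, and 1 input library served as the authors' control. The FLI1 antibody is not stated to tell the fusion from FLI1 itself, so peaks are called FLI1 peaks. On chromosomes 1 to 22 and X the deposited lists held 36305 FLI1, 19855 SSRP1 and 37195 H3K27ac peaks. With 1 library per target no difference could be tested, and 95% exact binomial intervals cover counting error only. The lists give no peak height or read depth. H3K27ac lay within 2.5 kb of a transcription start site (TSS) at all 5 genes listed as Ewing sarcoma markers, which include NR0B1. It did so at 0 of 8 matched markers of other cell types, and at 57.9% of all protein-coding genes. FLI1 lay there at 4 of the 5 and 3 of the 8, against 29.0% of all genes.

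Ewing sarcoma arises from a fusion of EWSR1 with an ETS gene, most often FLI1. ETS factors bind single sites with a GGAA core, whereas the fusion protein also binds tandem GGAA repeats and recruits coactivators there, so that a microsatellite can act as an enhancer. SSRP1 is a subunit of FACT, a chaperone that takes nucleosomes apart and rebuilds them, and H3K27ac marks active promoters and enhancers.

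The repeats of these loci are shown first, because the genes are described as driven from them. The search was for at least 4 consecutive GGAA on either strand, in the hg19 reference, and runs no more than 100 bp apart were counted as 1 site. The length of a run in SK-N-MC itself can differ from the reference. The site nearest to a TSS is printed for each gene, and with it the second FLI1-covered site of FCGRT and the longest runs of VRK1 and CALCB, the last chosen after its values were seen. Each is written on the strand that reads GGAA, with 20 bases on each side and the runs in capitals. The first 6 lines, from STEAP2 to VRK1, lay under a FLI1 peak, and the other 6 did not.
STEAP2: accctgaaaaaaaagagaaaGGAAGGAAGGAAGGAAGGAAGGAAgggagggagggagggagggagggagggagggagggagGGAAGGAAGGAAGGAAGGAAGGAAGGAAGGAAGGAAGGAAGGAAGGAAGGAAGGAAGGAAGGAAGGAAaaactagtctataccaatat
FCGRT: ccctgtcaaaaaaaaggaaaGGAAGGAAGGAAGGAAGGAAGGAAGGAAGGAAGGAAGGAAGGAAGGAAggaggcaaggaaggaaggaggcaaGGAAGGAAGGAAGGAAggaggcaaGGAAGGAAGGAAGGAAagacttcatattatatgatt
FCGRT upstream: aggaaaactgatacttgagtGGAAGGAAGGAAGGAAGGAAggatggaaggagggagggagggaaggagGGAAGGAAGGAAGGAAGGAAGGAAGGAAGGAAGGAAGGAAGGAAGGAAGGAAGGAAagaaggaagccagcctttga
PRKCB: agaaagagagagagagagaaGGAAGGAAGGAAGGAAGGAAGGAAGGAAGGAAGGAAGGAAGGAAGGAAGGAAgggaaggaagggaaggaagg
PPP1R1A: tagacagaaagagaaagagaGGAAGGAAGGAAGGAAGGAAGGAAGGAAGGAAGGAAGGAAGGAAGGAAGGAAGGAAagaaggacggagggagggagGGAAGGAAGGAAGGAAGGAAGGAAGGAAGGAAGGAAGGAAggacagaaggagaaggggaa
VRK1 downstream: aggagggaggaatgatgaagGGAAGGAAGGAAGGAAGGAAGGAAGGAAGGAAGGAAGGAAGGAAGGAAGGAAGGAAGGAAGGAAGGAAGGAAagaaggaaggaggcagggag
NR0B1: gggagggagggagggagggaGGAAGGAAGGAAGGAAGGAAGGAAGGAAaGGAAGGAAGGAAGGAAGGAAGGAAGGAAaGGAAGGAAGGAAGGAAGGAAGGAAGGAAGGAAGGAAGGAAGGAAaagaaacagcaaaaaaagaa
CAV1: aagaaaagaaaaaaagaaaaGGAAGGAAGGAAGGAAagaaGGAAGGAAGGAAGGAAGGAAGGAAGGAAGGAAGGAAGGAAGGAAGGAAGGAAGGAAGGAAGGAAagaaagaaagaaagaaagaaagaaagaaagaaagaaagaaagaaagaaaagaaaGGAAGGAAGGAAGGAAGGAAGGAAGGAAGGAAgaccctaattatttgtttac
LIPI: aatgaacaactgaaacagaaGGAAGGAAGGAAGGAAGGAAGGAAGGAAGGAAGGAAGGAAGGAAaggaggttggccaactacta
VRK1 upstream: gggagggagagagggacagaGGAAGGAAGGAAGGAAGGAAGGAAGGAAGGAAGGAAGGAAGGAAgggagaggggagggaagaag
CALCB long run: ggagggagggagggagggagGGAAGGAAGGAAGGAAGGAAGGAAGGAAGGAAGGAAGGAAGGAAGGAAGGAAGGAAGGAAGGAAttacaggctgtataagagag
CALCB: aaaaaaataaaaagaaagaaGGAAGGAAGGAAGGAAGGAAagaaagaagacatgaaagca

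In hg19 these stretches lie at chr7:89837647-89837815 (STEAP2), chr19:50014744-50014895 (FCGRT), chr19:49915108-49915251 (FCGRT upstream), chr16:23878299-23878390 (PRKCB), chr12:55018674-55018829 (PPP1R1A), chr14:97532356-97532467 (VRK1 downstream), chrX:30328855-30328996 (NR0B1), chr7:116163101-116163310 (CAV1), chr21:15585593-15585676 (LIPI), chr14:97235461-97235544 (VRK1 upstream), chr11:14956466-14956569 (CALCB long run) and chr11:14937277-14937336 (CALCB). Those of STEAP2, FCGRT, CAV1 and the shorter run of CALCB are on the plus strand and the others on the minus strand. Run lengths are given in plus-strand order throughout the text, so arrays printed on the minus strand read in reverse. The site of STEAP2 is also the nearest to STEAP1. They range from a single run, as in PRKCB, LIPI and both VRK1 sites, to arrays of several runs, with single bases between them in NR0B1 and longer stretches in CAV1 and FCGRT.

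**Figure D1:**
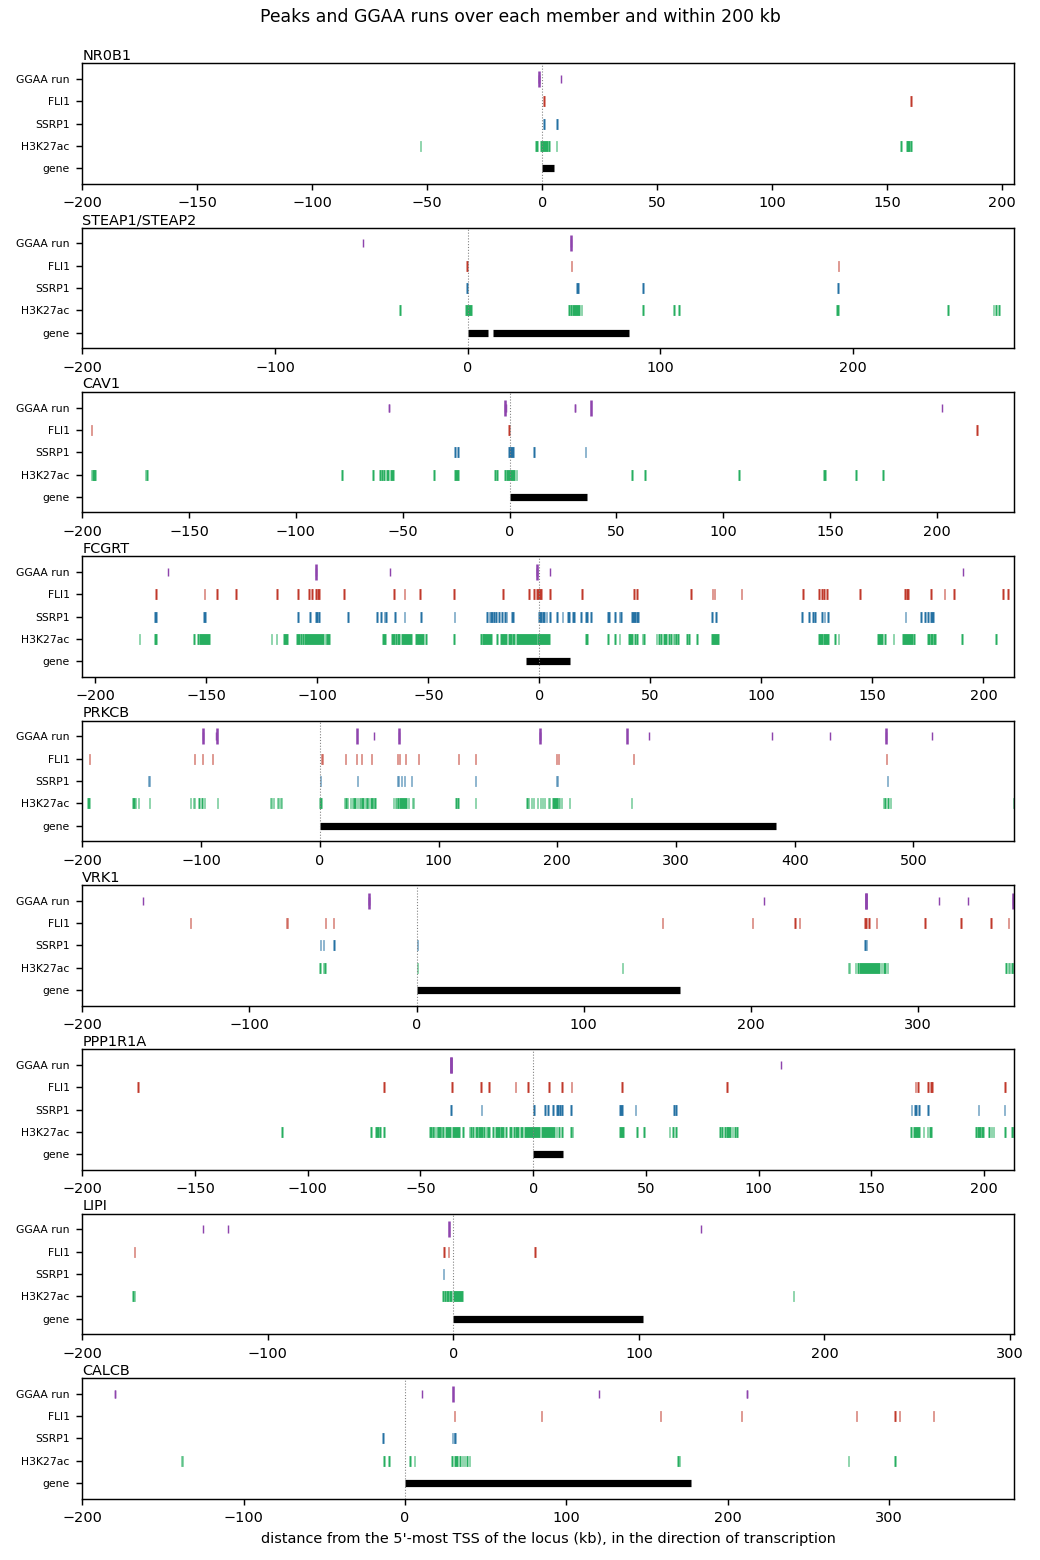
Peaks of each list and reference runs of at least 4 GGAA in the 9 loci, by distance in kb from the 5′-most TSS in the direction of transcription. Coloured bars are peaks (drawn at least 0.8 kb wide), black bars the genes, and tall purple ticks runs of at least 9 units. FCGRT, with 41 FLI1 peaks, and NR0B1, with 2, are the extremes.

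All 10 genes were acetylated at a TSS, most carried SSRP1 there, and FLI1 was the mark most often missing. H3K27ac lay within 2.5 kb of a TSS at 10 of 10 genes, against 57.9% of all protein-coding genes, and an H3K27ac peak covered a TSS itself at all 10, against 51.3%. SSRP1 lay within 2.5 kb at 8 of 10, against 35.8%, and FLI1 within 2.5 kb at 6, against 29.0%. All 3 marks were present at NR0B1, STEAP1, CAV1, FCGRT, PRKCB and PPP1R1A, or 6 of 10, against 17.3% of all genes. The FLI1 peak of PPP1R1A, at 2466 bp, was just inside the window and that of LIPI, at 2532 bp, just outside. For STEAP2 the nearest FLI1 peak lay 3175 bp upstream, for CALCB 10493 bp upstream and for VRK1 49894 bp upstream.

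**Figure D2:**
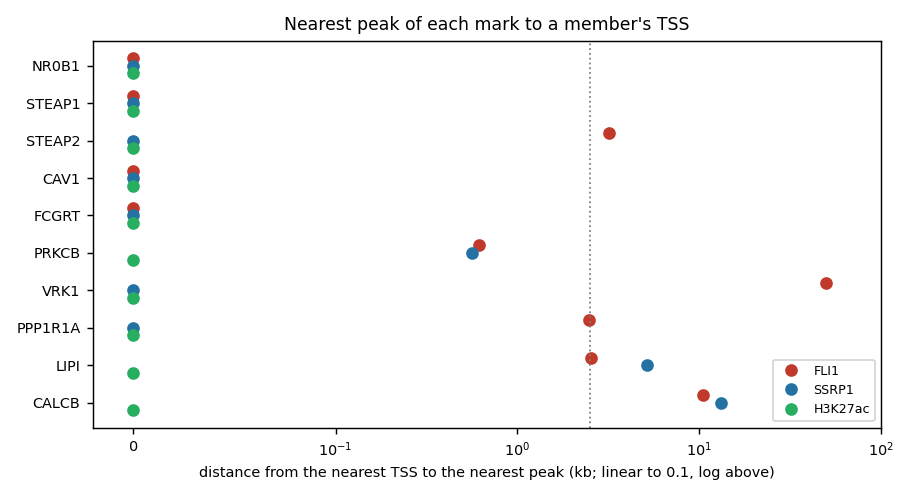
Distance in kb from a TSS of each gene to the nearest peak of each mark, on an axis that is linear to 0.1 kb and logarithmic above. Points at 0 are peaks that cover a TSS, and the dotted line is the 2.5 kb window. H3K27ac is at 0 for all 10 genes, SSRP1 for 7 and FLI1 for 4.

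The acetylated intervals over these TSSs were mostly wide. Their median width was 4089.5 bp, against 1439 bp over the 10320 protein-coding genes with H3K27ac over a TSS. PPP1R1A had the widest, at 6884 bp, followed by FCGRT at 5715 bp, LIPI at 5484 bp, STEAP2 at 4330 bp, CAV1 at 4277 bp, STEAP1 at 3902 bp, NR0B1 at 3630 bp and PRKCB at 2230 bp. VRK1, at 1027 bp, and CALCB, at 1191 bp, were below the median of all genes.

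A FLI1 peak that itself held a run of at least 4 GGAA, called a repeat peak here, lay over the gene or within 200 kb at 6 of the 10: STEAP1, STEAP2, FCGRT, PRKCB, VRK1 and PPP1R1A. The background for this was 15.9% of all genes. Within 50 kb it was 5 of 10, against 5.76%, with VRK1 the gene lost, and the same 5 were found within 100 kb, against 9.19%. At each distance STEAP1 and STEAP2 were both counted through the same peak. NR0B1, CAV1, LIPI and CALCB had no repeat peak, although each had a run of at least 11 units within 200 kb. For these 4 genes the peak list shows no FLI1 interval over a repeat, where a peak may lie below the authors' threshold and the placement of reads in repeats was not analysed, so this says nothing of whether the repeat acts on the gene. All 10 had some FLI1 peak within 200 kb, as did 89.9% of all genes.

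Of the 115 distinct FLI1 peaks in the 9 loci, 8 were repeat peaks (6.96%, interval 3.05 to 13.2), against 2.69% of all FLI1 peaks. The widths of the 8 ran from 394 to 2668 bp with a median of 643 bp. Among all FLI1 peaks at least as wide as the narrowest of the 8, 394 bp, 8.22% held a run. The matching share for the peaks of these loci was not computed, and the 6.96% above covers peaks of every width. All 8 were shared with H3K27ac, where shared means that at least 20% of either peak was covered, against 63.3% of the 978 repeat peaks in the whole list. SSRP1 was shared by 5 of the 8, against 21.9%. Among all 115 peaks, 80 were shared with H3K27ac (background 28.4%) and 42 with SSRP1 (background 17.2%). FCGRT gave 41 of the 115 peaks, and without it 50 of 74 were shared with H3K27ac and 22 with SSRP1. The loci differed: H3K27ac was shared by 17 of 20 peaks at PRKCB and 16 of 18 at PPP1R1A. At VRK1 it was 5 of 16 and at CALCB 2 of 8. The remaining loci had only 2 to 4 FLI1 peaks each.

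Among the genes of surface and membrane proteins, STEAP2 encodes a metalloreductase of the plasma membrane and endosomes, and STEAP1 encodes a tumour surface antigen. STEAP1 (chromosome 7, 89783770 to 89794143, plus strand) had a FLI1 peak of 998 bp over its TSS, wider than 98.9% of all FLI1 peaks and with no run. STEAP2 (89796904 to 89867451, plus strand) had SSRP1 of 1427 bp and H3K27ac over its TSSs. The 1 repeat peak of the pair, 460 bp at 89837366 to 89837825, lay inside the STEAP2 gene record but upstream of its basic TSSs, and 53.6 kb downstream of the STEAP1 TSS. It held runs of 6 and 17 units and 24 GGAA in all, with both strands counted, or 5.22 per 100 bp, against a median of 0.88 over all FLI1 peaks. No SSRP1 peak met it, and the nearest to the runs lay 2370 bp away. FLI1 thus had 1 peak at the STEAP1 promoter without a repeat and 1 at the STEAP2 repeat without SSRP1. The third FLI1 peak of the windows lay 192173 bp downstream of the STEAP1 TSS, without a run, and was shared with SSRP1 and H3K27ac.

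CAV1 (chromosome 7, 116165048 to 116201233, plus strand) encodes caveolin, the coat protein of caveolae. A FLI1 peak of 556 bp, an SSRP1 peak of 2555 bp and an H3K27ac peak of 4277 bp covered its TSSs. Its array of 4, 16 and 8 GGAA lay 1758 bp upstream of the TSS with no FLI1 peak over it, and the promoter FLI1 peak began 1281 bp from it. The other 2 FLI1 peaks of the window lay 196 kb upstream and 217 kb downstream, the latter in an intron of MET. A run of 12 units just past the 3′ end of CAV1 lay 37.9 kb from the nearest FLI1 peak.

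FCGRT (chromosome 19, 50010073 to 50029685, plus strand) encodes the heavy chain of the neonatal Fc receptor, which rescues immunoglobulin G and albumin from breakdown. Its window was the most crowded, with 25 other protein-coding genes, 41 FLI1, 57 SSRP1 and 76 H3K27ac peaks. FLI1 peaks were frequent on chromosome 19 as a whole, with 24.1 in each Mb where the median chromosome had 11.8. The FLI1 peak over its TSSs held 5 summits in the deposited list and 2668 bp, the widest of all FLI1 peaks, and reached over the array of 12, 4 and 4 units 1043 bp upstream of a TSS. The SSRP1 peak of 1770 bp inside it began 323 bp after the array. A second repeat peak of 910 bp lay 100 kb upstream in an intron of KASH5, with runs of 5 and 14 units. There SSRP1 covered all 76 bp of the runs, the only site of these loci where an SSRP1 peak lay over a run.

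NR0B1 (chromosome X, 30322323 to 30327507, minus strand) encodes an orphan nuclear receptor that represses transcription, and its promoter microsatellite is a textbook EWS-FLI1 response element. The window held only 2 FLI1 and 2 SSRP1 peaks and 9 H3K27ac peaks. The FLI1 peak of 699 bp and the SSRP1 peak of 1057 bp covered a TSS within 3630 bp of H3K27ac. The array of 11, 7 and 7 units lay 1368 bp upstream of the nearest TSS, with no peak of any mark over it, and the nearest FLI1 peak ended 1723 bp away. Chromosome X was sparse in FLI1 peaks, at 1.12 per Mb, and 12.6% of its 214 runs of at least 9 units lay under one, against a median of 22.9% over the chromosomes.

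Of the signalling genes, PRKCB encodes a protein kinase C isoform, VRK1 a nuclear serine/threonine kinase and PPP1R1A an inhibitor of a protein phosphatase. PRKCB (chromosome 16, 23847304 to 24231932, plus strand) had the most FLI1 peaks over the gene body, 15, beside 10 of SSRP1 and 45 of H3K27ac. A FLI1 peak of 822 bp began 612 bp downstream of its TSS with SSRP1 over it and no run. It had 3 repeat peaks, the most of any of the 10 genes, but its gene (384629 bp) and its window (785 kb) were also the longest. The first, of 607 bp with 13 units, lay in an intron 30.9 kb downstream of the TSS and was shared with SSRP1. The second, of 679 bp with runs of 12 and 4 units, lay in an intron 66.7 kb downstream and was not. The third, of 438 bp with a run of 4 units, lay in an intron of CACNG3, 92.0 kb beyond the end of PRKCB, and its edge fell within a run of 9 units. PRKCB also had runs of 16, 16 and 15 units with no FLI1 peak over them, so in this locus runs longer than those under a peak had none.

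VRK1 (chromosome 14, 97263641 to 97421183, plus strand) had no other protein-coding gene in its window. Its TSSs carried 313 bp of SSRP1 and 1027 bp of H3K27ac without FLI1. The repeat peak of the locus lay 110 kb beyond the 3′ end of the gene, 232 kb from a TSS (97531641 to 97532942). It was 1302 bp wide, wider than 94.1% of all repeat peaks, with runs of 18 and 13 units and 44 GGAA in all, inside the widest H3K27ac peak of the 9 loci, at 12473 bp. SSRP1 peaks of 732 and 282 bp lay on either side of the run of 18 units, 237 bp apart. Runs of 11 units 28.1 kb upstream of VRK1 and of 15 units 321 kb downstream had no FLI1 peak.

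PPP1R1A (chromosome 12, 54969171 to 54982443, minus strand) lay in a broad acetylated stretch, with 42 H3K27ac peaks and 14 SSRP1 peaks over the gene or within 50 kb. Its repeat peak, 394 bp at 55018588 to 55018981, lay 36.1 kb upstream with runs of 10 and 14 units, and 30 GGAA in all, or 7.61 per 100 bp, the densest of the 115 peaks. SSRP1 of 393 bp began 26 bp from the array. The TSS of LACRT was nearer to this peak than that of PPP1R1A, at 9.68 kb.

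The last pair encode secreted or cell-surface-acting proteins: LIPI, a lipase that acts on phosphatidic acid and a known tumour antigen of Ewing sarcoma, and CALCB, the precursor of the neuropeptide beta-CGRP. LIPI (chromosome 21, 15481134 to 15583276, minus strand) had 4 FLI1 peaks, 1 SSRP1 peak and 8 H3K27ac peaks. Its run of 11 units lay 2337 bp upstream of a TSS, and a FLI1 peak of 469 bp with 5 GGAA began 152 bp from it without reaching it. The TSS of RBM11, which points away from LIPI, was 2202 bp from that peak. The 1 SSRP1 peak lay at RBM11, where it met a FLI1 peak of 339 bp.

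CALCB (chromosome 11, 14926543 to 15103888, plus strand) carried H3K27ac alone near its TSSs, 1191 bp wide. Its gene record includes a transcript that starts far upstream, and the run of 16 units lies in an intron of it, 29.9 kb from its TSS. A FLI1 peak of 304 bp began 307 bp from the run, shared with SSRP1 and H3K27ac, and held no run of 3 or more but 13 GGAA, or 4.28 per 100 bp. In the 9 loci 4 runs of at least 9 units lay within 500 bp of a FLI1 peak without being under it: those of LIPI and CALCB, and at PRKCB a run of 16 units and the run of 9 units cut by a peak's edge. If a run within 500 bp counts, an alternative added late with the values in view, 8 of 10 genes have a repeat peak, and NR0B1 and CAV1 remain without. The share of all genes under that looser rule was not computed, so this count has no background.

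**Figure D3:**
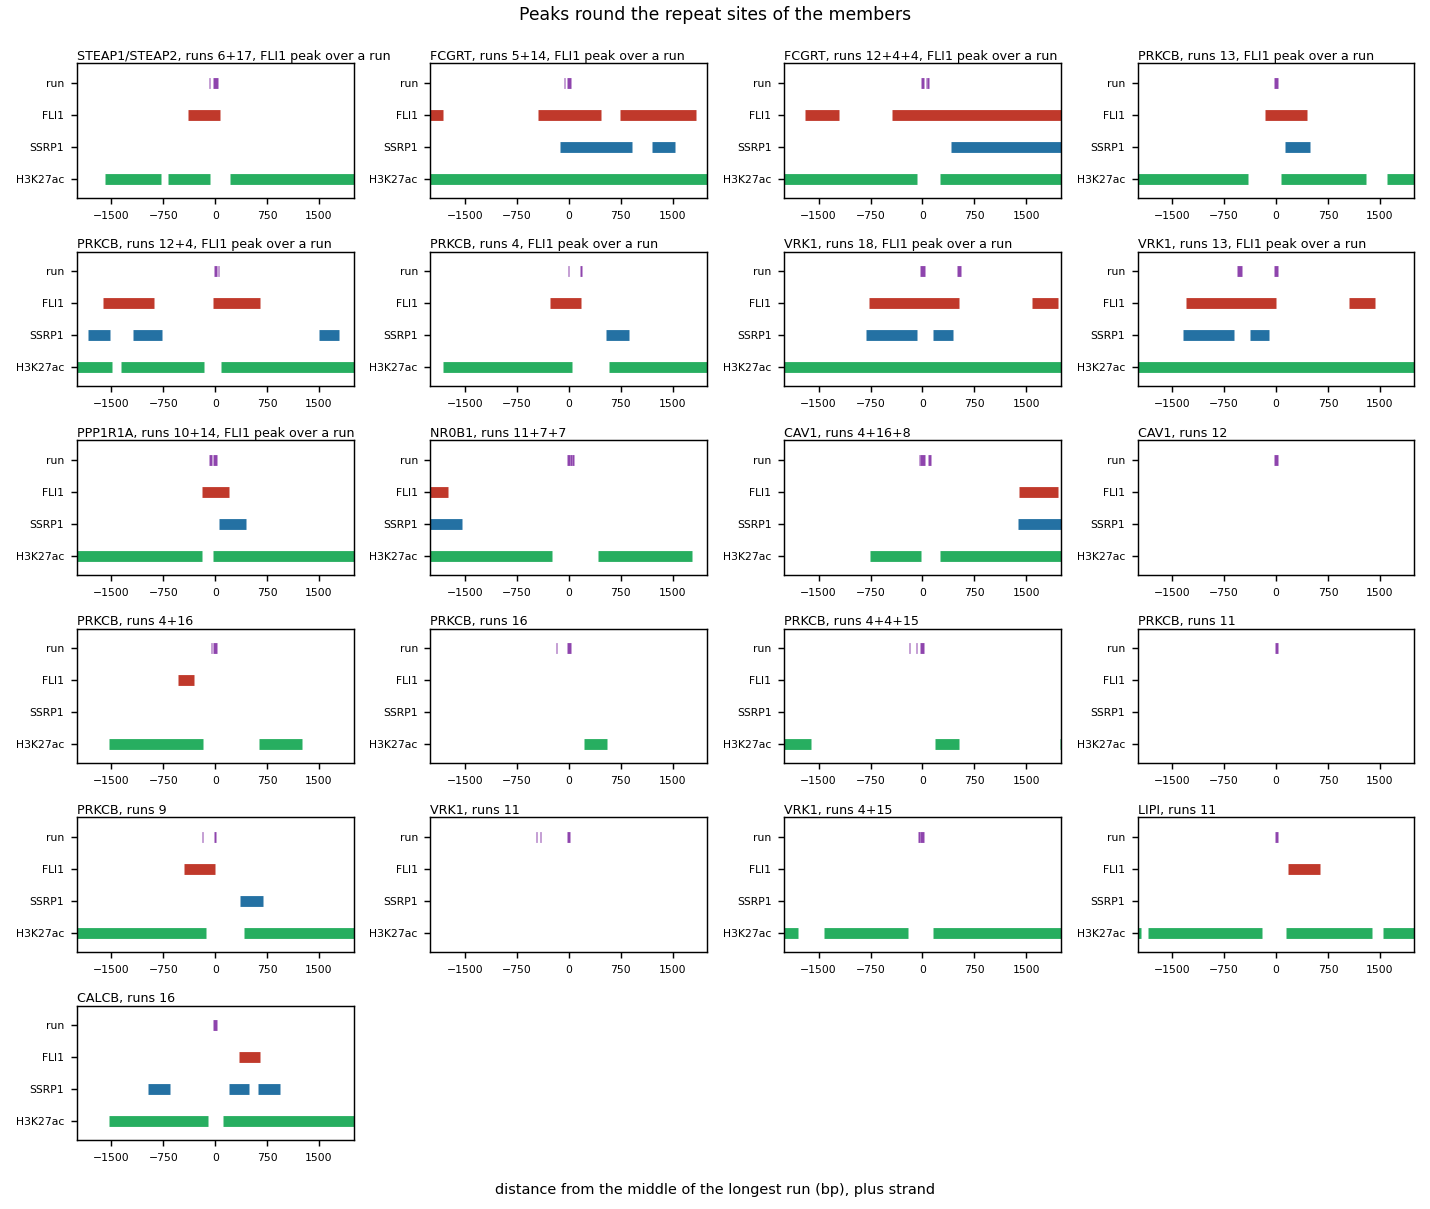
Peaks within 2 kb of each repeat site with a run of at least 9 GGAA or under a FLI1 peak, by distance in bp along the plus strand from the middle of its longest run. Purple bars are runs, and the units of each run are in the panel titles. The first 9 panels have a FLI1 peak over a run, and H3K27ac covers the middle of the longest run in 5 of them and breaks there in 4. In 6 of the 12 other panels H3K27ac lies within 500 bp on both sides of the middle of the longest run and leaves that middle bare.

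Runs of GGAA were dense in these loci. The genes were picked as repeat-driven, so dense runs in their windows and near their TSSs are part of that choice and no separate finding. The 9 windows held 68 runs of at least 4 units in 4.58 Mb, or 14.8 per Mb, against 5.36 per Mb over chromosomes 1 to 22 and X. These runs made up 51 sites, and the PRKCB window alone held 18 of the runs. A run of at least 4 units lay within 2.5 kb of a TSS at NR0B1, CAV1, FCGRT and LIPI, 4 of 10 genes, against 2.1% of all genes. All 4 had a run of at least 9 units there, against 0.697%. Of the 140 genes with such a run, 46 had it under a FLI1 peak (32.9%, interval 25.2 to 41.3), and of the 4 here only FCGRT did.

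Over the whole reference, longer runs lay under a FLI1 peak more often. The share was 3.69% (interval 3.33 to 4.07) for runs of 4 to 5 units, 8.38% (7.28 to 9.58) for 6 to 8, 17.5% (15.9 to 19.2) for 9 to 12, 27% (24.8 to 29.3) for 13 to 16 and 40.7% (34.0 to 47.6) for 17 or more. A run counted as under a peak when at least 4 of its units lay inside. In the 9 loci 15 of 68 runs did, against 8.71% of all runs, and 9 of 21 runs of at least 9 units, against 22.6%. Both runs of 17 or more units, at STEAP2 and VRK1, lay under a peak, as did 4 of 10 runs of 13 to 16 and 3 of 9 runs of 9 to 12. Even in the longest class most reference runs had no FLI1 peak over them. CAV1 and CALCB each have a run of 16 units, in the class of 13 to 16, with no FLI1 peak over it.

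**Figure D4:**
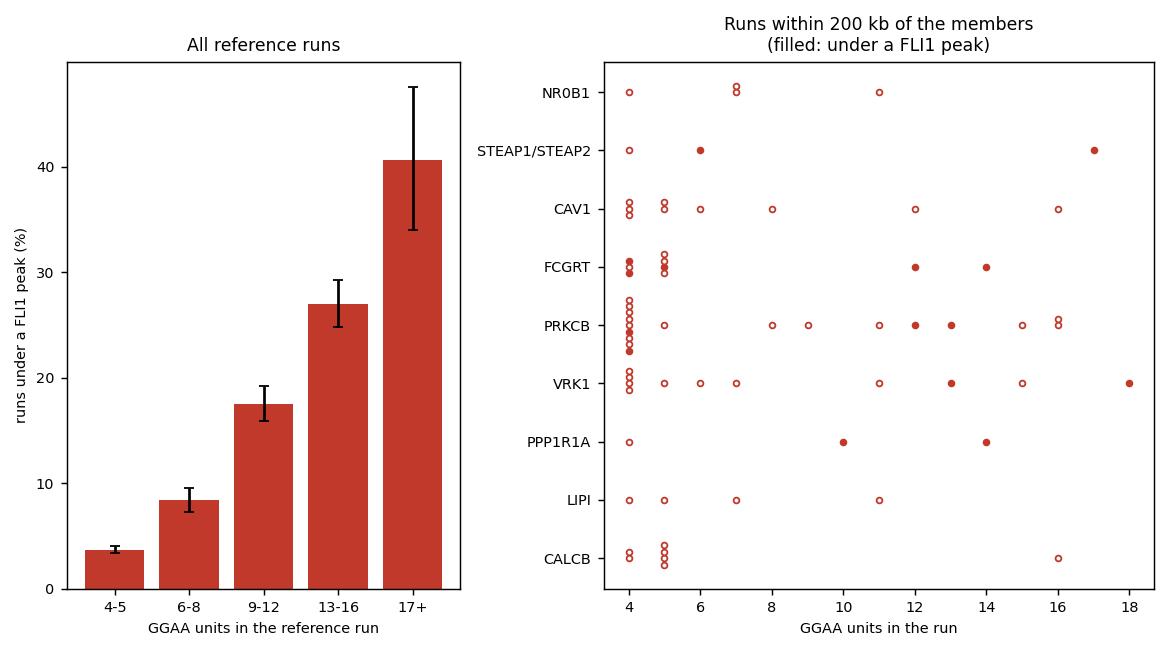
Left, the share of reference runs under a FLI1 peak by length in GGAA units, with 95% exact binomial intervals. Right, the runs of each locus by length, filled where a FLI1 peak lay over them. The share climbs from 3.69% to 40.7%, and the unfilled points at 16 units belong to CAV1, PRKCB and CALCB.

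At the FLI1 peaks over or near TSSs the sequence was mostly of another kind. The FLI1 peaks within 2.5 kb of a TSS at NR0B1, STEAP1, CAV1, PRKCB and PPP1R1A held no run of 3 or more GGAA. The letters CCGGAAG or CCGGAAA on either strand, called an ETS core here, occurred in the peaks of NR0B1, STEAP1 and PRKCB and not in those of CAV1, FCGRT and PPP1R1A. It was found in 15 of the 115 FLI1 peaks of these loci, against 8.56% of all FLI1 peaks. Of FLI1 peaks of 295 to 998 bp within 2.5 kb of any TSS, 31.5% (interval 30.0 to 33.0) held the core. The 4 matches are shown with 10 bases on each side and the core in capitals, to set beside the repeats above.
NR0B1: ggccgcccacCCGGAAGccccgctctg
STEAP1: acatactgaaCCGGAAActgtgggcgg
PRKCB first: ctcctcgcgcCCGGAAGcaggcggaga
PRKCB second: gccgccccccCCGGAAAcaaggggtgg

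The match of NR0B1 lay in an exon (chrX:30327107-30327133), 384 bp from the TSS. That of STEAP1 lay 343 bp upstream (chr7:89783424-89783450), and both matches of PRKCB lay in an intron 744 and 781 bp downstream of the TSS (chr16:23848038-23848064 and chr16:23848075-23848101). The first pair are read on the plus strand and the PRKCB matches on the minus strand. A match is a description of the sequence and does not show which bases were bound.

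At many of the repeats the acetylated intervals broke, and at others they ran across. Of the 8 repeat peaks, all had H3K27ac within 500 bp on both sides of the longest run inside the peak, which H3K27ac met in 4 and left bare in 4. At NR0B1, H3K27ac peaks of 3630 and 1357 bp lay on either side of the array, 674 bp apart. At CAV1 the break was 269 bp, at STEAP2 280 bp, at the FCGRT promoter 341 bp, at LIPI 344 bp and at CALCB 215 bp. At PRKCB the breaks over the runs of 13 and of 12 units were 466 and 243 bp. H3K27ac covered both VRK1 runs under FLI1 and the KASH5 site near FCGRT without a break. In CACNG3 it covered the run of 4 units, but the run of 9 units next to it was bare, in a break of 545 bp. At PPP1R1A H3K27ac covered most of the run of 14 units and none of that of 10. It also covered the run of 6 units at STEAP2, the run of 4 and 13 bp of the run of 16 at CAV1, and a run of 8 units in PRKCB that had no FLI1 peak. The break was seen at genes with a FLI1 peak over the run, such as STEAP2, and at genes without, such as NR0B1.

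Over the whole genome, long runs with the mark nearby were mostly bare in the middle, also away from any FLI1 peak. H3K27ac lay within 500 bp of the middle at 676 of 847 runs of at least 9 units under a FLI1 peak. It did so at 159 of 240 not under a FLI1 peak but within 500 bp of one, and at 340 of 2660 farther away. SSRP1 did so at 241 of the 847 and 28 of the 2660. The first shares need the mark on 1 side only. Of 676 runs of at least 9 units under a FLI1 peak with H3K27ac within 500 bp of the middle, the middle was bare of H3K27ac in 81.7% (interval 78.5 to 84.5). Of 340 such runs more than 500 bp from any FLI1 peak it was bare in 95% (92.1 to 97.1). Of 10410 FLI1 peaks without a run and with H3K27ac within 500 bp, the middle was bare in 12.7% (12.1 to 13.4). For SSRP1 the 3 shares were 97.1% of 241 (94.1 to 98.8), 100% of 28 (87.7 to 100) and 34.0% of 7332 (32.9 to 35.1). With H3K27ac within 500 bp on both sides, the middle was bare at 402 of 526 runs under a FLI1 peak (76.4%, interval 72.6 to 80.0), at 169 of 186 away from one (90.9%, 85.8 to 94.6) and at 283 of 9360 FLI1 peaks without a run (3.02%, 2.69 to 3.39). SSRP1 seldom lay on both sides, at 47 runs under a FLI1 peak, 40 of them bare, and at 2 runs away from one, both bare. In the 9 loci, 17 of the 20 sites with a run of at least 9 units had H3K27ac within 500 bp. The background is the counts over all such runs that open this paragraph, which are of runs and not of sites. Of the 17 sites, 13 were bare in the middle. With the mark on both sides it was 10 of 14. For SSRP1 the counts were 7 of 8 with the mark on either side and 1 of 2 with it on both. How reads that fall within a repeat were placed was not analysed here, so an interval that stops at a run does not show that the mark itself is absent from it.

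**Figure D5:**
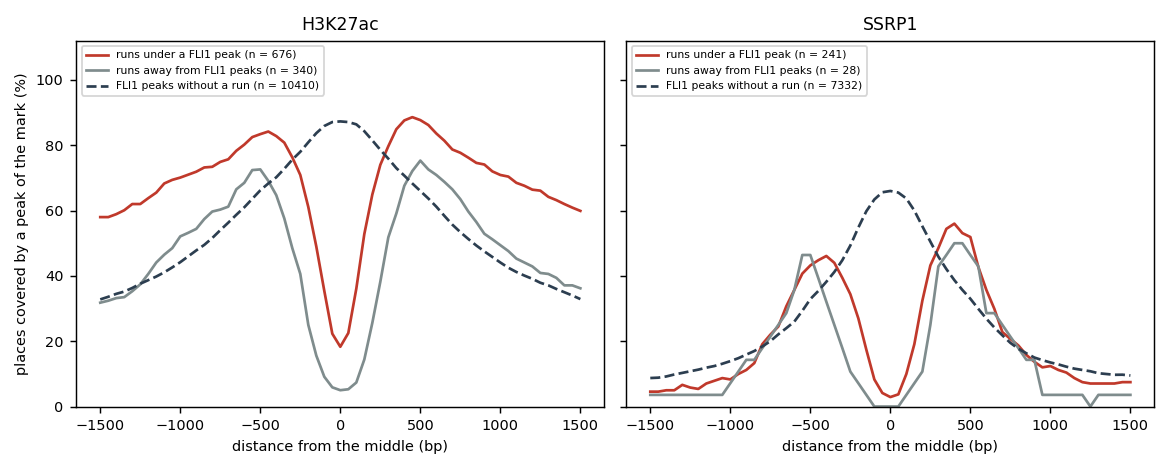
Share of places covered by an H3K27ac peak (left) or SSRP1 peak (right), by distance in bp from the middle of runs of at least 9 GGAA under a FLI1 peak, of such runs more than 500 bp from one, and of FLI1 peaks without a run. Only places with the mark within 500 bp were used. H3K27ac coverage is 18.3% at the middle of runs under FLI1 and 5.0% at runs away from it, and 87.3% at the middle of FLI1 peaks without a run.

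SSRP1 lay mostly beside the runs as well. At the 5 repeat peaks shared with SSRP1, the SSRP1 interval lay beside the longest run at 4 (the FCGRT promoter, the first PRKCB peak, VRK1 and PPP1R1A) and over it at 1. Among all 214 repeat peaks shared with SSRP1, SSRP1 met any base of the longest run in 16 (7.48%, interval 4.33 to 11.9), and H3K27ac in 34.6% (28.2 to 41.4). SSRP1 had a peak within 500 bp on both sides of the longest run in 2 of the 8 repeat peaks here and in 54 of all 978.

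Among 26 other targets that EWS-FLI1 is known to activate, a repeat peak lay within 200 kb at 13, against the background of 15.9%, and within 50 kb at 10, against 5.76%. The 13 were NKX2-2, CCND1, SOX2, CCK, KDSR, EZH2, PAX7, SOX6, UPP1, EGR2, XG, ABHD6 and POU3F1. CCK, the gene of the peptide cholecystokinin, had the nearest, with 13 units 364 bp from a TSS. ABHD6, a lipase gene, had 13 units 6.19 kb away, and POU3F1, a neural transcription factor gene, 12 units 15.0 kb away. PAX7 had 4 repeat peaks within 200 kb, the nearest with 18 units at 19.3 kb. XG, a blood group gene on chromosome X, had 3, the nearest with 10 units at 12.8 kb. At their TSSs, 23 of the 26 had H3K27ac, 18 SSRP1 and 12 FLI1, against 57.9%, 35.8% and 29.0% of all genes. Of 15 genes listed as repressed by EWS-FLI1, 1 had a repeat peak within 200 kb, ICAM1, at 136 kb, and 0 within 50 kb. At the TSSs of these 15 genes, 6 had H3K27ac, 9 SSRP1 and 4 FLI1. The windows scale with gene length and differ in gene density, which these counts do not hold alike.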

How the data were processed

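Chromatin of SK-N-MC cells was precipitated for FLI1, SSRP1 or H3K27ac, once each, and sequenced beside an input library, 4 libraries in all. Bowtie2 alignment to hg19 and peak calling against the input with MACS2 2.2.7.1 were done by the authors at a q threshold of 0.05, per the series' design text and the submitters' processing notes. The deposited values are peak starts and ends, another kind of value than counts or signal, with no height, so depth is unknown. Lines that repeat an interval were counted once, and alternatives used each line. Runs were sought in the GRCh37 genome, and TSSs were those of basic transcripts of GENCODE 44 lifted to GRCh37. Python 3.11.15, pandas 2.3.3, numpy 2.4.6 and scipy 1.17.1 were used, and the search was tested on simulated data. A TSS window was 2.5 kb on each side, and shared peaks overlapped by at least 20%. Intervals are exact (Clopper-Pearson) at 95%, for counting error only. All 10 genes, their repeat peaks and the listed genes with a repeat peak were named by rule. The genes and lists were chosen with earlier results of these data known. Sequences came from GRCh37.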

Additional observations from a re-analysis of the deposited data

How the results depend on the processing

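Of 33 alternatives, 28 gave a count within 1.5 times the count reported and 5 did not, with counts and not shares compared. With runs of at least 6 GGAA, 10 of 30 runs lay under a FLI1 peak and with runs of at least 8 GGAA, 9 of 23, against 15 of 68. Within 50 kb of the genes, 48 FLI1, 71 SSRP1 and 171 H3K27ac peaks remained of 115, 113 and 306, and each deposited H3K27ac line counted alone gave 570. At 1 kb from a TSS FLI1 lay at 5 genes and at 5 kb at 8, against 6. Taking the TSS of the gene record alone left SSRP1 at 6 genes and H3K27ac at 8. Gaps of up to 4 bases in a run gave a repeat peak at 7 genes, and a run within 500 bp of a peak, an alternative chosen after seeing the data, at 8, against 6. For these looser rules the share of all genes was not computed. None is given either for the 1 kb and 5 kb windows or for the TSS of the gene record, so those counts have no background. No paired analysis was possible because each target had 1 library and no test was made. Without replicates or read depth, a missing peak may lie below the authors' threshold, and reference run lengths may differ from those of the cells.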
